A study of Mus musculus with 6 samples.

Results

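The genes that build fatty acids and triglycerides were compared between liver libraries of wild-type (WT) mice and libraries labelled CRY1 KO, that is, knockout of the circadian repressor gene Cry1. The members are 34 genes chosen by name, from citrate export to lipid droplet formation, and all 34 were present among the 15092 genes of the deposited table and passed the filter on low counts that left 13816 genes for testing. The mice were of the strain C57BL/6J in both groups, with 3 libraries each, and all titles begin with NC, which the labels leave unexplained. The labels name liver as tissue and hepatocyte as cell type, describe polyadenylated RNA sequencing and no treatment, and give no sex, age, feeding state, time of day or knockout allele. Separate animals are not mentioned, so a p-value here reflects only how far these libraries spread, part of which may be technical.

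In hepatocytes, citrate leaves the mitochondria and is cleaved to acetyl-CoA, acetyl-CoA carboxylase turns this into malonyl-CoA, and fatty acid synthase builds palmitate from both with NADPH. Palmitate is then elongated and desaturated, activated to acyl-CoA, and joined to glycerol phosphate to form triglyceride. Insulin, acting through the transcription factor SREBP-1c that Srebf1 encodes, and sugar, acting through ChREBP, are known to drive these genes in liver, and many of them follow daily rhythms of feeding and the clock.

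Library totals lay between 79708703 and 91316332 estimated counts. Cry1 was not measurably lower under the knockout label: its estimated counts were 413, 579 and 694 in WT and 561, 521 and 445 in CRY1 KO (edgeR adjusted p = 0.954 for a log2 difference of -0.03, SE 0.19). A value for the whole gene does not show whether an exon is missing, so the labels are not checked by it, and CRY1 KO below always means the libraries labelled so. Hepatocyte markers were abundant in every library, with a summed level of 101156 to 107190 CPM (counts scaled by TMM-adjusted library size) in WT and 106244 to 116466 CPM in CRY1 KO over 17 tested genes. Of these 17, 1 was called, Hnf4a, higher in CRY1 KO (log2 0.73, SE 0.13, edgeR adjusted p = 0.0389), where 1.70% of all tested genes were called. Groups did not overlap for 4 that were higher and 3 that were lower (27.3% of all in either direction). WT 1 stood apart from the other libraries: its haemoglobin genes took 0.267% of counts against 0.0435% to 0.0917% elsewhere, and its 14 Kupffer cell markers summed to 765.8 CPM against 483.2 and 299.2 CPM in WT 2 and WT 3. In CRY1 KO these markers summed to 281.9 to 289.0 CPM. All 14 had negative differences, with a median log2 of -0.76. By edgeR 0 of them were called, 8 had an unadjusted p under 0.05 (20.7% of all tested genes) and 8 had groups that did not overlap (27.3% of all). Their part in the results below was not tested.

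Of the 34 members, 4 rose in CRY1 KO and 0 fell (edgeR quasi-likelihood test, Benjamini-Hochberg adjusted p under 0.05, taken as the call throughout). They were Scd1, which makes monounsaturated fatty acids, the elongase genes Elovl5 and Elovl2, and Me1, a source of NADPH. The other 30 members did not pass, and 12 of the 34 had an unadjusted p under 0.05 against 20.7% of all tested genes. Among all tested genes 1.70% were called, 1.06% higher and 0.644% lower. The median log2 difference (CRY1 KO minus WT) was 0.18 over the members and -0.02 over all tested genes, and 24 of 34 members had a positive difference against 47.3% of all genes. Members together took 0.742% to 0.911% of counts in WT and 1.10% to 1.47% in CRY1 KO. Scd1 alone accounted for 0.292% to 0.360% and 0.578% to 0.848% of counts, and without it the members took 0.450% to 0.551% in WT and 0.522% to 0.627% in CRY1 KO, ranges that overlapped.

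**Figure D1:**
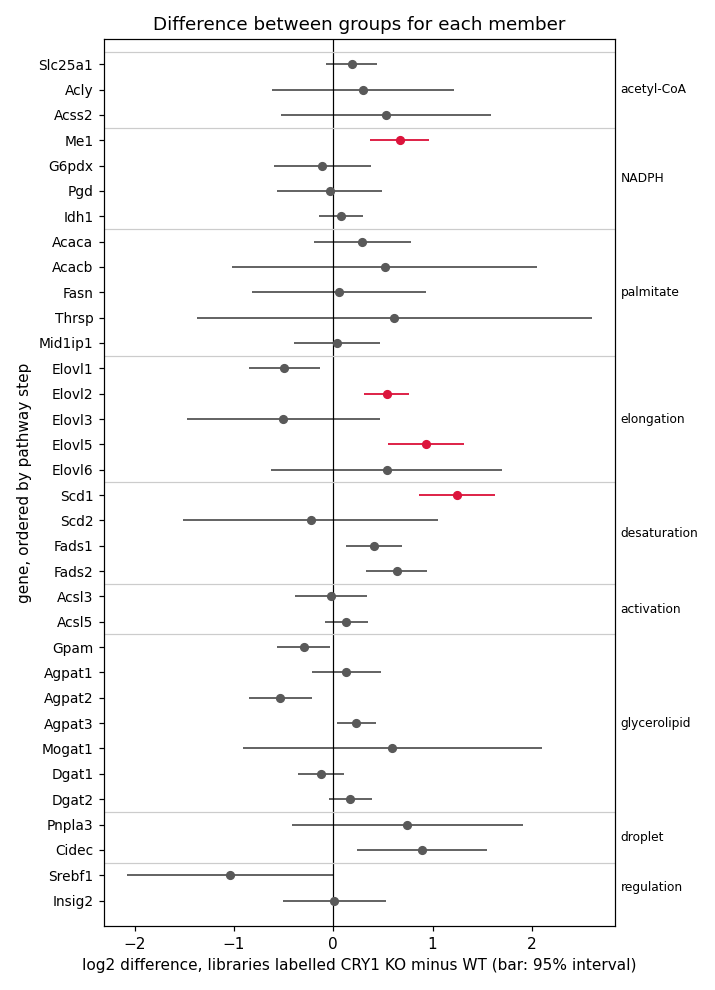
Log2 difference of CRY1 KO minus WT for each of the 34 members, ordered by pathway step, with the 95% interval from the edgeR fit as a bar (n = 3 libraries per group). Red marks the 4 members that passed the test (Me1, Elovl2, Elovl5 and Scd1); the widest intervals belong to Thrsp, Mogat1 and Acacb.

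The number of called members depended on single libraries. Leaving out WT 1 gave 11 called members, leaving out WT 2 gave 0 and leaving out WT 3 gave 5. Leaving out CRY1 KO 1, 2 or 3 gave 0, 1 and 0. Over all genes the count was 17 with WT 2 left out and 844 with WT 3 left out. With 5 libraries the test also has less power, and its share in these losses was not tested. With all 6 libraries Scd1 was called under every alternative tried. Elovl5 and Me1 missed the threshold with limma-voom (adjusted p = 0.0501 and 0.0580), Me1 with upper-quartile scaling (edgeR adjusted p = 0.0528) and Elovl2 with the replicate number as a block (edgeR adjusted p = 0.0691). All 3 missed it with no scaling (edgeR adjusted p = 0.0664 to 0.126) and without robust estimation (edgeR adjusted p = 0.0511 to 0.0602). In bulk RNA, fewer cells of a type and less RNA per cell cannot be told apart either.

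Desaturation held the largest called change. Scd1 encodes stearoyl-CoA desaturase, which puts the first double bond into stearate and palmitate. Its level was 3824, 2915 and 2784 CPM in WT 1, 2 and 3 and 8442, 6223 and 7933 CPM in CRY1 KO 1, 2 and 3. Every CRY1 KO library lay above every WT library, the lowest of them (CRY1 KO 2) still well clear of WT 1. Scd1 thus rose 2.37-fold, a log2 difference of 1.25 with SE 0.17 (edgeR adjusted p = 0.0190). Without WT 2, CRY1 KO 1 or CRY1 KO 3 its edgeR adjusted p was 0.111, 0.0767 and 0.0985, with log2 differences of 1.19, 1.16 and 1.21.

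Scd2, a paralog known chiefly from brain and developing tissue, did not pass. It stood at 14.3, 3.21 and 7.51 CPM in WT and at 6.39, 6.46 and 8.46 CPM in CRY1 KO, with the CRY1 KO libraries inside the spread of WT (log2 -0.23, SE 0.52, edgeR adjusted p = 0.839). For Scd2 the 95% interval ran from -1.51 to 1.05 and for Scd1 from 0.87 to 1.63, and the difference between the paralogs was not tested. Per kilobase of transcript, the WT level was 656.9 CPM for Scd1 and 1.53 CPM for Scd2. Reads shared between the similar Scd genes were assigned by the authors' tools, so the low Scd2 values are uncertain. The same holds for Scd3, which is not a member and had 0, 0 and 389 estimated counts in WT and 813, 0 and 771 in CRY1 KO.

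Fads1 and Fads2 encode the delta-5 and delta-6 desaturases, which with Elovl5 and Elovl2 convert dietary linoleic and alpha-linolenic acid to long polyunsaturated fatty acids. Fads2 stood at 435.8, 323.6 and 363.4 CPM in WT and at 565.9, 525.7 and 659.0 CPM in CRY1 KO. For Fads1 the values were 362.6, 289.3 and 285.2 CPM in WT and 410.8, 378.4 and 459.3 CPM in CRY1 KO. In both genes all CRY1 KO libraries were above all WT libraries, yet neither passed: the log2 difference was 0.64 for Fads2 (SE 0.14, edgeR adjusted p = 0.0545) and 0.41 for Fads1 (SE 0.12, edgeR adjusted p = 0.117). Without WT 1 both rose, by 0.76 and 0.53 on the log2 scale (edgeR adjusted p = 0.0163 and 0.0366).

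Elongation was split among its 5 members, with 2 called higher and 0 lower. Elovl5, which elongates polyunsaturated fatty acids of intermediate length, stood at 266.4, 196.1 and 247.3 CPM in WT and at 494.3, 355.3 and 508.1 CPM in CRY1 KO. Every CRY1 KO value exceeded every WT value, with CRY1 KO 2 the lowest of its group as for Scd1. Elovl5 rose 1.91-fold (log2 0.94, SE 0.17, edgeR adjusted p = 0.0402). Elovl2, which acts on the next, longer polyunsaturated substrates, stood at 333.7, 331.0 and 389.7 CPM in WT and at 501.7, 491.0 and 539.5 CPM in CRY1 KO. Its groups were the tightest of the called members and did not overlap, and it rose 1.45-fold (log2 0.54, SE 0.10, edgeR adjusted p = 0.0410). All 4 genes of this polyunsaturated route, Fads1, Fads2, Elovl2 and Elovl5, thus had groups that did not overlap, 2 of them with a call; of all tested genes 27.3% had such groups. Both Elovl5 and Elovl2 lost their call without WT 2 (edgeR adjusted p = 0.152 and 0.176) and without each of CRY1 KO 1, 2 and 3 (0.0626 to 0.156 for Elovl5 and 0.111 to 0.169 for Elovl2).

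The other elongase genes differed in pattern. Elovl6, which extends palmitate to stearate, stood at 90.9, 39.9 and 31.3 CPM in WT and at 57.2, 87.9 and 90.4 CPM in CRY1 KO, so that WT 1 was the highest library and WT 2 and WT 3 were the lowest (log2 0.54, SE 0.46, edgeR adjusted p = 0.555). Elovl1, an elongase of saturated very long chains, stood at 46.0, 38.9 and 29.6 CPM in WT and at 27.5, 29.6 and 24.3 CPM in CRY1 KO. All its CRY1 KO values were below WT, though CRY1 KO 2 lay close under WT 3, and it did not pass (log2 -0.49, SE 0.16, edgeR adjusted p = 0.139); it was called lower without WT 3 (log2 -0.64, edgeR adjusted p = 0.0271). Elovl3 stood at 469.5, 296.2 and 279.4 CPM in WT and at 323.6, 282.8 and 130.3 CPM in CRY1 KO, with overlapping groups (log2 -0.50, SE 0.39, edgeR adjusted p = 0.513). Per kilobase, the WT level was 185.2 CPM for Elovl3, 91.5 CPM for Elovl2 and 85.0 CPM for Elovl5, and 21.1 CPM for Elovl1 and 9.08 CPM for Elovl6. In CRY1 KO the per-kilobase level was 162.7 ± 30.4 CPM for Elovl5, 133.0 ± 6.64 CPM for Elovl2 and 130.6 ± 54.2 CPM for Elovl3 (SD, n = 3), which do not differ beyond their spread.

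Me1 was the called member among the 4 genes of NADPH supply. It encodes cytosolic malic enzyme, which makes NADPH while turning malate to pyruvate. The level was 131.4, 95.4 and 113.6 CPM in WT and 189.1, 161.3 and 191.4 CPM in CRY1 KO, without overlap. Me1 rose 1.59-fold (log2 0.67, SE 0.13, edgeR adjusted p = 0.0470), close to the threshold, and lost the call without WT 2 and without each CRY1 KO library (edgeR adjusted p = 0.133 to 0.185). The pentose phosphate enzymes G6pdx and Pgd and the cytosolic isocitrate dehydrogenase Idh1 had log2 differences of -0.11, -0.04 and 0.08 (SE 0.21, 0.23 and 0.10). For Idh1 the 95% interval ran from -0.14 to 0.30, while for G6pdx (-0.59 to 0.37) and Pgd (-0.57 to 0.49) it was wider.

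Promoter sequences from RefSeq (build GRCm38.p6, the 250 bases before the most upstream listed start) were matched for 28 of the 34 members. Elovl5, Elovl2 and Me1 are shown because they rose together, and Acss2 and Fasn because they follow the other pattern described below; none was listed for Scd1, Scd2, Fads1, Elovl3, Dgat1 and Dgat2. Capitals mark matches, on either strand, to the E-box CACGTG, the core sterol regulatory element TCACNCCAC, the D-box TTATGNAA, the NF-Y box CCAAT and the GC box GGGCGG. All sequences read 5′ to 3′ on the strand of the gene.
Elovl5, chr9:77917115-77917364, plus strand: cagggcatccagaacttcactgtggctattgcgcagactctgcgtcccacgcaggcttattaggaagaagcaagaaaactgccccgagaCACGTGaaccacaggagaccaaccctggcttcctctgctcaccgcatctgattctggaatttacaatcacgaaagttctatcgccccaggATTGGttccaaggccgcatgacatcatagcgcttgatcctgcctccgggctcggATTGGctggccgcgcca
Elovl2, chr13:41220404-41220653, minus strand: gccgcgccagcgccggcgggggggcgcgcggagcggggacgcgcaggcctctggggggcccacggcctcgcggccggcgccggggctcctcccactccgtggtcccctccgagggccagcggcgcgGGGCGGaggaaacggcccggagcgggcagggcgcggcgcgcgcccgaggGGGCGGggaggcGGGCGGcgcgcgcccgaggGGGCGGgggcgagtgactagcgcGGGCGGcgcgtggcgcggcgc
Me1, chr9:86695915-86696164, minus strand: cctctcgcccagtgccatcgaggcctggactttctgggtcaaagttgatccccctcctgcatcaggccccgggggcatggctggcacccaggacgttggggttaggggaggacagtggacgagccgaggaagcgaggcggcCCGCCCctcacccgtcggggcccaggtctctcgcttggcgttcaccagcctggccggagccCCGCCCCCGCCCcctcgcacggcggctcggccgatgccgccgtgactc
Acss2, chr2:155517793-155518042, plus strand: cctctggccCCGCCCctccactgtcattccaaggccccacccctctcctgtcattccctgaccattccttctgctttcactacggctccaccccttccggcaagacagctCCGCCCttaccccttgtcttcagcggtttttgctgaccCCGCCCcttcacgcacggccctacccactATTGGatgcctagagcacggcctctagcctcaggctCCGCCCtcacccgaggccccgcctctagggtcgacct
Fasn, chr11:120824548-120824797, minus strand: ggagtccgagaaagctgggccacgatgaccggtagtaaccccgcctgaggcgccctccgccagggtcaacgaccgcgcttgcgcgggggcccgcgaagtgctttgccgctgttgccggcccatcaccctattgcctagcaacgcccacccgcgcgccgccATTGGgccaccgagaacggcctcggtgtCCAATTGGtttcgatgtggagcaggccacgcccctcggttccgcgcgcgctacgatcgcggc

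Of the called members with a listed promoter, Elovl2 and Me1 held GC boxes, 5 and 3 of them, and Elovl5 held none. Elovl5 held an E-box, the element bound by CLOCK and BMAL1 as well as by USF, at 161 to 156 bases before the start. It also held a pair of NF-Y boxes read on the other strand. Acss2 had an NF-Y box and 4 GC boxes, and Fasn had 3 NF-Y boxes, of which a pair overlap in the palindrome CCAATTGG. Over the 28 members, 2 held an E-box (Slc25a1 and Elovl5, 7.14%) against 6.04% of 27025 promoters. The NF-Y box was found in 16 members (57.1%) against 34.5% of all, the GC box in 15 (53.6%) against 33.0%, and the sterol regulatory element core and the D-box in 0 members, against 1.03% and 3.24%. The 27025 promoters were not limited to tested or expressed genes, as the members are, so these shares are not like for like. A match is only a description of these letters.

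**Figure D2:**
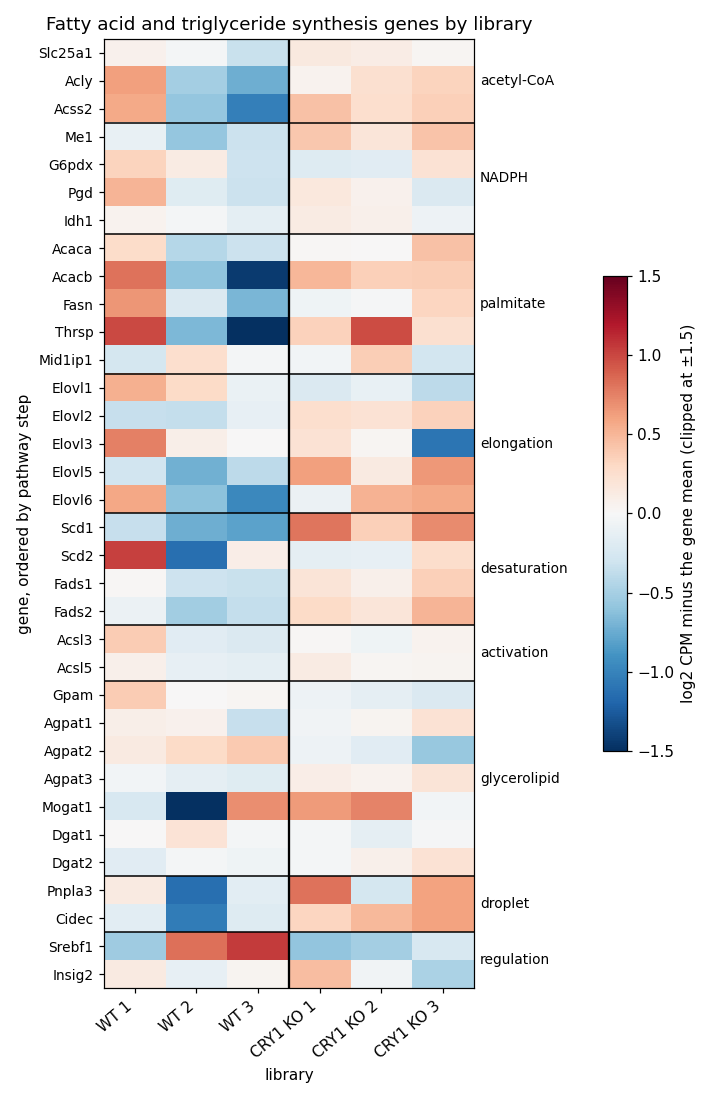
Log2 CPM of each member in each library, as the deviation from that gene's mean over the 6 libraries, with genes ordered by pathway step and colours clipped at 1.5. Scd1, Elovl5, Elovl2 and Me1 are low in all 3 WT libraries, whereas Acly, Acss2, Acacb, Fasn, Thrsp and Elovl6 are high in WT 1 and low in WT 2 and WT 3, and Srebf1 runs the opposite way.

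Acetyl-CoA supply and palmitate synthesis held 0 called genes among 8 members, all with positive differences. Acly encodes ATP citrate lyase, which splits citrate in the cytosol, and stood at 332.3, 153.0 and 131.0 CPM in WT and at 225.1, 257.6 and 273.6 CPM in CRY1 KO. Acss2, which makes acetyl-CoA from acetate, stood at 267.1, 121.1 and 88.5 CPM in WT and at 244.9, 214.2 and 230.4 CPM in CRY1 KO. In both, WT 1 was the highest of all 6 libraries and WT 2 and WT 3 were the lowest.

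Carboxylase and synthase genes repeated this order. Acacb, the mitochondrial acetyl-CoA carboxylase whose malonyl-CoA restrains fatty acid oxidation, stood at 109.7, 41.3 and 23.2 CPM in WT and at 88.3, 80.2 and 80.6 CPM in CRY1 KO. Acaca, the cytosolic carboxylase of fatty acid synthesis, stood at 91.5, 56.4 and 60.6 CPM in WT and at 76.7, 75.9 and 102.9 CPM in CRY1 KO. Fasn, the synthase itself, stood at 471.1, 256.5 and 185.0 CPM in WT and at 283.5, 292.8 and 373.3 CPM in CRY1 KO. In all 3 genes WT 2 and WT 3 were under every CRY1 KO library, and WT 1 was above all of them for Acacb and Fasn and within their range for Acaca.

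The differences were small against this spread. The log2 difference was 0.30 for Acly (SE 0.37), 0.53 for Acss2 (SE 0.42), 0.52 for Acacb (SE 0.60), 0.29 for Acaca (SE 0.21) and 0.06 for Fasn (SE 0.35), with edgeR adjusted p between 0.461 and 0.949. The 95% interval for Fasn ran from -0.82 to 0.93, so that neither a rise nor a fall by such an amount can be told from none. Slc25a1, the mitochondrial citrate carrier, varied least, at 182.8, 172.0 and 139.2 CPM in WT and 194.2, 188.6 and 178.5 CPM in CRY1 KO (log2 0.18, SE 0.11, edgeR adjusted p = 0.389). Per kilobase, the WT level was 7.31 ± 2.02 CPM for Acaca and 6.61 ± 5.19 CPM for Acacb (SD, n = 3). Since Acacb stood at 109.7 CPM in WT 1 against 41.3 and 23.2 CPM in WT 2 and WT 3, these means do not rank the genes.

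Thrsp encodes Spot 14, and Mid1ip1 encodes its related partner, a protein that promotes the activity of acetyl-CoA carboxylase. Thrsp varied most among the members above 1 CPM: it stood at 286.9, 90.5 and 39.5 CPM in WT, a 7.26-fold range, and at 184.2, 283.9 and 170.5 CPM in CRY1 KO, a 1.67-fold range. WT 1 and CRY1 KO 2 were its highest libraries. Its log2 difference was 0.62 (SE 0.77, edgeR adjusted p = 0.695). Mid1ip1 did not follow it, at 29.1, 41.3 and 34.0 CPM in WT and 33.9, 44.8 and 28.6 CPM in CRY1 KO (log2 0.04, SE 0.19, edgeR adjusted p = 0.930).

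This arrangement, with WT 2 and WT 3 both beyond all CRY1 KO libraries on the same side and WT 1 not, was counted after the values had been seen. It held for 11 of 34 members against 13.0% of all tested genes. In 10 of them CRY1 KO lay above WT 2 and WT 3 (5.83% of all), and in 1 it lay below them (7.14%). The 10 were Slc25a1, Acly, Acss2, Acaca, Acacb, Fasn, Thrsp, Elovl6, Acsl3 and Acsl5, and the 1 was Srebf1. Over all 6 libraries Acsl3 had a slightly negative difference (log2 -0.03). In 7 of the 11 members WT 1 exceeded the highest CRY1 KO library, and in the other 4 it lay within the CRY1 KO range. Groups that did not overlap at all were found for another 11 members, 8 higher and 3 lower, against 27.3% of all tested genes, which is near the background. WT 1 was the highest WT library in 27 members (79.4%) against 34.3% of all tested genes, and the WT range exceeded the CRY1 KO range in 27 members against 64.1%. Red cell and Kupffer cell markers were high in the same library; their part in these values was not tested.

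Leaving out WT 1 gives these 11 members separated groups by construction, so their values in that fit are a description. The log2 difference was then 0.83 for Acly, 1.13 for Acss2, 1.37 for Acacb, 1.14 for Elovl6, 1.71 for Thrsp, 0.54 for Acaca, 0.52 for Fasn, 0.27 for Slc25a1, 0.20 for Acsl5, 0.19 for Acsl3 and -1.39 for Srebf1. Of the 11 members called in that fit, 5 (Acly, Acss2, Acacb, Elovl6 and Srebf1) are of this kind, and 4.04% of all genes were called. The median over the 34 members was 0.34.

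**Figure D3:**
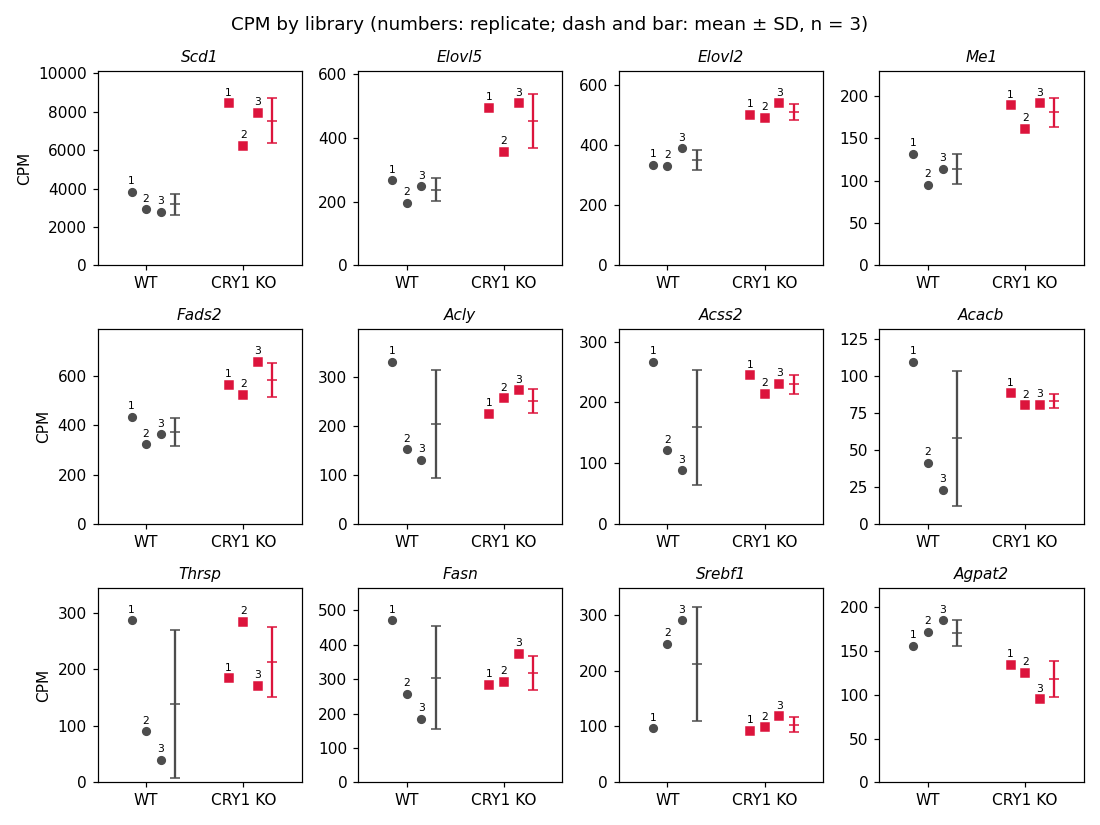
CPM in each library for 12 members, with the replicate number above each point and the mean ± SD (n = 3) beside it; axes start at 0. Groups are apart for Scd1, Elovl5, Elovl2, Me1, Fads2 and Agpat2, while for Acly, Acss2, Acacb, Thrsp, Fasn and Srebf1 the WT 1 point lies away from WT 2 and WT 3 and widens the WT bar.

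Srebf1, which encodes SREBP-1, ran opposite to Acly, Acss2, Acacb, Fasn, Thrsp and Elovl6, though not to every member. It stood at 97.0, 247.6 and 290.1 CPM in WT and at 92.5, 98.2 and 118.0 CPM in CRY1 KO. WT 2 and WT 3 were well above every CRY1 KO library, while WT 1 lay within the CRY1 KO range. The log2 difference was -1.04 (SE 0.41, edgeR adjusted p = 0.240, 95% interval -2.08 to -0.0029). Hence the libraries with the most Srebf1 mRNA, WT 2 and WT 3, had the least Acly, Acss2, Acacb, Fasn, Thrsp and Elovl6. The table gives 1 value for the gene and does not separate the SREBP-1a and SREBP-1c transcripts, nor does mRNA show how much of the protein was processed. Insig2, an endoplasmic reticulum protein that retains SREBP, stood at 186.6, 156.1 and 174.0 CPM in WT and at 234.0, 163.7 and 122.4 CPM in CRY1 KO, with CRY1 KO holding both the highest and the lowest library (log2 0.01, SE 0.22, edgeR adjusted p = 0.988).

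Acyl-CoA activation, which prepares fatty acids for use, had 0 called genes among 2 members. Acsl5 stood at 363.5, 317.4 and 312.1 CPM in WT and at 377.3, 353.6 and 356.9 CPM in CRY1 KO (log2 0.13, SE 0.09, edgeR adjusted p = 0.454). For Acsl3 the log2 value was -0.03 (edgeR adjusted p = 0.948, SE 0.16).

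Glycerolipid assembly had 0 called genes among 7 members, with 4 positive and 3 negative differences. Gpam, the mitochondrial acyltransferase that starts the route, stood at 191.0, 147.3 and 149.8 CPM in WT and at 138.3, 133.3 and 125.7 CPM in CRY1 KO. All CRY1 KO libraries were below all WT libraries, but the difference did not pass (log2 -0.30, SE 0.12, edgeR adjusted p = 0.204), and it was -0.17 without WT 1. Agpat2, which adds the second fatty acid, stood at 155.2, 171.9 and 184.7 CPM in WT and at 134.1, 124.7 and 94.8 CPM in CRY1 KO. Its groups did not overlap either, CRY1 KO 3 being the lowest, and it did not pass (log2 -0.53, SE 0.14, edgeR adjusted p = 0.0849).

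The related acyltransferase gene Agpat3 differed in the other direction, at 172.4, 161.3 and 156.0 CPM in WT and 189.4, 184.0 and 202.0 CPM in CRY1 KO, again without overlap and without a call (log2 0.23, SE 0.09, edgeR adjusted p = 0.183). Agpat1 had a difference of 0.13 (SE 0.15). Per kilobase, Agpat2 stood at 114.6 CPM in WT, Agpat3 at 27.3 CPM and Agpat1 at 3.83 CPM, and in CRY1 KO Agpat2 stood at 79.2 CPM. The final step, from diglyceride to triglyceride, is catalysed by the unrelated enzymes of Dgat1 and Dgat2. Dgat2 stood at 295.6, 326.2 and 317.8 CPM in WT and at 325.0, 348.9 and 384.9 CPM in CRY1 KO, with CRY1 KO 1 under the highest WT library (log2 0.17, SE 0.10, 95% interval -0.05 to 0.39, edgeR adjusted p = 0.343). Dgat1 had a difference of -0.12 (SE 0.10, 95% interval -0.35 to 0.11). The WT level per kilobase was 138.4 ± 6.99 CPM for Dgat2 and 10.2 ± 0.91 CPM for Dgat1 (SD, n = 3).

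Mogat1 and Pnpla3 were near the limit of measurement, and Cidec was low but above them. Cidec, which fuses lipid droplets and is known to be induced in fatty liver, had 110, 58 and 120 estimated counts in WT and 145, 163 and 185 in CRY1 KO. That is 1.28, 0.69 and 1.25 CPM against 1.80, 2.0 and 2.17 CPM, with no overlap and no call (log2 0.89, SE 0.29, edgeR adjusted p = 0.139). Pnpla3, a lipase-like droplet protein regulated by feeding, had 32, 13 and 29 counts in WT and 48, 23 and 44 in CRY1 KO, and Mogat1, a monoacylglycerol acyltransferase, 15, 5 and 32 against 26, 28 and 17. Both had overlapping groups (edgeR adjusted p = 0.435 and 0.646). Among adipocyte markers, which would show adhering fat tissue, Adipoq had at most 6 counts in a library and Cfd at most 27. Others had more, such as Fabp4 with 1428 counts in WT 1 and Lipe with 1561 in WT 3. The 9 tested genes of that list summed to 81.1 to 89.6 CPM in WT and 74.0 to 77.6 CPM in CRY1 KO. Of these, 7 had negative and 2 positive differences, with a median log2 of -0.36. By edgeR 0 were called, and 3 had groups that did not overlap, all lower (27.3% of all tested genes in either direction). Whether fat tissue adhered was not tested.

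Other genes of the pathway were taken from lists that do not hold the members, and their calls are to be read against the 1.70% of all tested genes called and the 20.7% with an unadjusted p under 0.05. Of 23 further tested enzymes of fatty acid synthesis 0 were called and 2 had an unadjusted p under 0.05, with a median log2 difference of 0.13. Of 19 further enzymes of glycerolipid synthesis, 3 had an unadjusted p under 0.05 and 1 of these was called, lower: Chka, choline kinase of phosphatidylcholine synthesis, at 39.1, 36.1 and 53.8 CPM in WT and 22.2, 19.2 and 17.7 CPM in CRY1 KO (log2 -1.13, SE 0.16, edgeR adjusted p = 0.0251). Of 30 regulators of lipid synthesis, 7 had an unadjusted p under 0.05 and 1 was called, lower: Nfyb, a subunit of the factor that binds the NF-Y box, at 23.8, 29.7 and 33.3 CPM in WT and 17.7, 17.4 and 16.5 CPM in CRY1 KO (log2 -0.75, SE 0.13, edgeR adjusted p = 0.0349). Mlxipl, which encodes ChREBP, had a difference of 0.13 (SE 0.21) and Srebf2 of -0.18 (SE 0.18). Nr1h3, which encodes LXRα, an inducer of Srebf1, stood at 85.1, 91.9 and 71.1 CPM in WT and at 70.4, 68.7 and 61.9 CPM in CRY1 KO, without a call (edgeR adjusted p = 0.179).

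Genes of cholesterol synthesis, which answer to the related factor SREBP-2, mostly shared the order of the libraries seen in Acly, Acss2, Acacb and Fasn. Of 24 tested genes 0 were called by edgeR and 0 had an unadjusted p under 0.05 (20.7% of all tested genes), and in 18 WT 2 and WT 3 lay beyond all CRY1 KO libraries while WT 1 did not, an arrangement seen in 13.0% of all tested genes. Their median deviation from the gene mean was highest in WT 1, at 0.95, and was -0.52 in WT 2 and -0.88 in WT 3. The CRY1 KO libraries lay between 0.02 and 0.16. For the 34 members it was 0.10 in WT 1, -0.20 in both WT 2 and WT 3, and 0.07 to 0.22 in CRY1 KO.

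**Figure D4:**
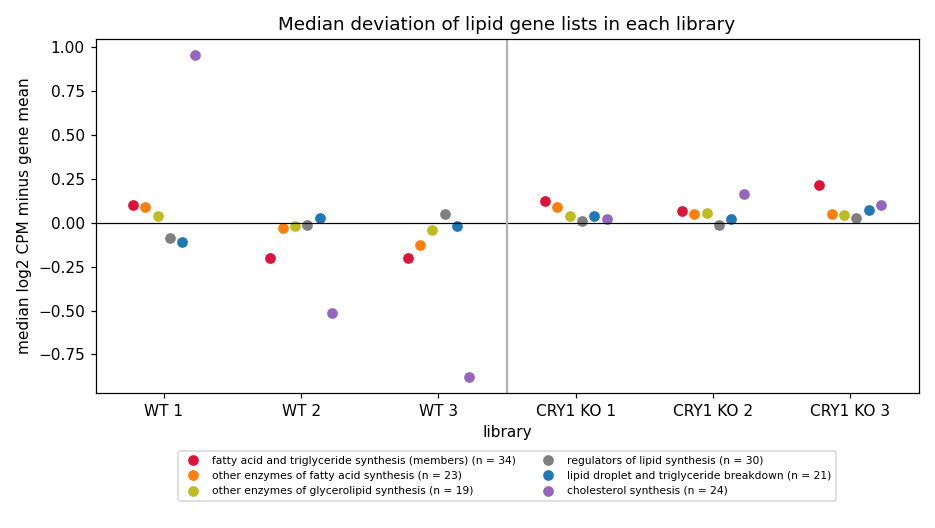
Median log2 CPM of each lipid gene list in each library, as the deviation from each gene's mean over the 6 libraries, with the number of tested genes in the legend. The cholesterol synthesis genes spread most, from 0.95 in WT 1 to -0.88 in WT 3, and the fatty acid and triglyceride synthesis genes are lowest in WT 2 and WT 3, at -0.20 each.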

How the data were processed

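Messenger RNA of mouse liver was sequenced in 6 samples, grouped and numbered by their titles, 3 WT and 3 CRY1 KO. The deposited table holds whole numbers per gene, taken here as estimated counts. The value 3 was more frequent than 1, 2 or 4 in all 6 libraries, so a unit may not be 1 fragment. Per the submitters' processing notes, the authors used StringTie 2.1.7, HISAT2 2.2.1, limma 3.42.2 and Trim Galore 0.6.7 with build GRCm39 (mm39). Order, settings, annotation and strand use: not given in the sources used here. Row sums start at 11, and genes below that are not analysed here.

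Genes were filtered (filterByExpr of edgeR 4.0.16, minimum count 10, minimum total 15), which removed 1276, scaled by TMM and tested with edgeR's robust quasi-likelihood test at an adjusted p of 0.05. The SE of a log2 difference is its size divided by the square root of the test's F, and 95% intervals use the test's degrees of freedom. Deviations use log2 CPM, prior count 2. Lengths are of the longest principal coding transcript in GENCODE M21 and were matched for all 34 members. The procedure was tested on simulated counts. Members and lists were chosen with earlier results of these data known, so counts over them are descriptions. By the rule for named genes, called members, members with groups that did not overlap and the smallest p of each step are given by library; those named for the position of WT 1 were added after their values were seen. Alternatives were DESeq2 1.42.0, limma-voom (limma 3.58.1), other scalings and filters, no robust estimation, the replicate number as a block, and leaving out each library.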

Additional observations from a re-analysis of the deposited data

How the results depend on the processing

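With all 6 libraries, RLE size factors, upper-quartile scaling, no filter and the stricter filter of 50 counts kept each count over the members within 1.5 times of the reported one. Upper-quartile scaling lost Me1 (edgeR adjusted p = 0.0528). DESeq2 called 8 members, 6 higher and 2 lower (Fads1, Fads2, Agpat2 and Srebf1 besides the reported 4), among 1252 genes. By limma-voom 2 members were called, both higher; with no scaling 1 of 113 called genes was a member, and without robust estimation 1 member was called, Scd1 in each case. The share of called genes that were higher was 62.1%, and 51.1% with upper-quartile scaling and 52.2% with no scaling. With the replicate block 3 members and 94 genes were called, Elovl2 being lost (edgeR adjusted p = 0.0691). The numbers share no known source: deviations of WT and CRY1 KO libraries of the same number correlated at -0.066, -0.014 and 0.070, and not every library correlated best with its own number.

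Leaving out a library gave 0 to 11 called members, 0 to 10 higher and 0 to 1 lower, 17 to 844 called genes, a median of 0.085 to 0.34, and 11 to 22 members whose groups did not overlap. Signs turned in 7 members (G6pdx, Pgd, Fasn, Mid1ip1, Scd2, Acsl3 and Insig2), none with a reported difference larger in size than the -0.23 of Scd2. With limma-voom Pgd stood at 0.0024, Scd2 at 0.0023, Acsl3 at 0.0023 and Insig2 at -0.037. Insig2 was -0.028 with upper-quartile scaling and -0.020 with no scaling. The replicate block gave Pgd 0.0011, Scd2 0.0019 and Insig2 -0.037. Over the libraries left out, G6pdx ran from -0.27 to 0.043, Pgd from -0.19 to 0.26, Fasn from -0.20 to 0.52, Mid1ip1 from -0.15 to 0.18, Scd2 from -0.61 to 0.40, Acsl3 from -0.13 to 0.19 and Insig2 from -0.26 to 0.21. The cause was not tested. Overlap of the groups does not depend on the test, so DESeq2, limma-voom, the block and the estimation gave no value for it, and Mogat1 and Pnpla3 had none under the stricter filter. Low counts limit Mogat1, Pnpla3 and Cidec.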

Other observations

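Genes of lipid droplets and triglyceride breakdown were also measured. Of 21 tested genes 2 rose and 0 fell in the libraries labelled CRY1 KO, where 1.06% of all tested genes rose, and 7 had an unadjusted p under 0.05 against 20.7% of all. Pnpla2, which encodes adipose triglyceride lipase, the enzyme that starts the breakdown of stored triglyceride, stood at 58.6, 52.1 and 51.4 CPM in WT and at 77.7, 70.6 and 78.6 CPM in CRY1 KO (log2 0.49, SE 0.09, edgeR adjusted p = 0.0417). Fitm2, needed for lipid droplets to form at the endoplasmic reticulum, stood at 28.8, 31.2 and 32.5 CPM in WT and at 48.3, 48.7 and 48.6 CPM in CRY1 KO (log2 0.65, SE 0.08, edgeR adjusted p = 0.0171). The groups did not overlap for either gene. G0s2, an inhibitor of that lipase, varied within both groups, at 10.2, 8.80 and 34.5 CPM in WT and 14.0, 37.4 and 21.5 CPM in CRY1 KO. Plin2, the main droplet coat protein gene of hepatocytes, was not called (log2 0.22, SE 0.12, edgeR adjusted p = 0.356). In this list, groups did not overlap for 6 genes that were higher and 2 that were lower (27.3% of all tested genes in either direction). The lower ones were Plin3, another coat protein gene, and Lipe, which encodes hormone-sensitive lipase. Neither was called (log2 -0.44 and -0.56, edgeR adjusted p = 0.0736 and 0.102). Higher without a call were Plin4, Ces1d, Mttp and Hsd17b13 (log2 1.49, 0.62, 0.35 and 0.31, edgeR adjusted p = 0.184, 0.316, 0.0895 and 0.153).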
